A study of Oryza sativa Japonica Group with 4 samples.

Results

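Aquaporins are membrane channels that let water, and in some members small uncharged solutes, cross cell membranes. Plants carry several subfamilies. The plasma membrane intrinsic proteins (PIPs) sit at the cell surface, the tonoplast intrinsic proteins (TIPs) mainly in the vacuolar membrane, the NOD26-like intrinsic proteins (NIPs) carry metalloids such as silicon and boron beside other solutes, and the small basic intrinsic proteins (SIPs) have been placed in the endoplasmic reticulum in Arabidopsis. In roots, aquaporins set much of the cell-to-cell path for water, and some TIPs of Arabidopsis also pass urea or ammonia. The aquaporin genes described here were found by name: a gene belonged if its symbol or a synonym was PIP, TIP, NIP or SIP with its 2-part number. Of 28 such genes in the RefSeq gene table, 25 had a probe set annotated to a single gene, out of 17905 measured genes. They comprised 10 PIP, 8 TIP, 5 NIP and 2 SIP genes, and PIP2-3, NIP1-2 and NIP3-3 were not analysed here. Names follow the table, so that PIP1-1 is the gene written OsPIP1;1 in the rice literature.

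The samples were roots of rice seedlings (Oryza sativa japonica, variety TNG67) aged 17 days, kept in the dark for their first 3 days and for 2 weeks in hydroponic solution lacking ammonium nitrate. In the root -N group the seedlings went for 30 min into solution still without nitrogen, and in the root +gln group into solution with 2.5 mM glutamine. Both groups, the control included, had thus been starved of nitrogen, and each held 2 biological repeats, each on its own GeneChip Rice Genome Array, on which a probe set gives 1 intensity per array. The labels do not say whether the repeats came from separate cultures, so the p-values measure the spread between these samples, and the number of arrays limits the precision. In whole roots, fewer cells of a type and less RNA per cell cannot be told apart.

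The median intensity over all probe sets was 19.9 and 21.7 in root -N replicates 1 and 2, and 19.7 and 22.2 in root +gln. Arrays with the same replicate number were the most alike (r = 0.995 for number 1 and 0.990 for number 2, across probe sets), against 0.975 between the root -N repeats and 0.983 between the root +gln repeats. RNA quality controls split the same way: the 3′ to 5′ intensity ratio of the rice Gapdh controls was 6.85 and 6.14 on the arrays numbered 1 and 4.30 and 4.41 on those numbered 2. The 10 root marker genes ranged in mean intensity from the 4.16th percentile of all genes, for the iron-phytosiderophore transporter gene ysl15, to the 99.7th, for the silicon transporter gene Lsi1, which is the aquaporin gene NIP2-1. Their median was at the 49.1st percentile and 5 of them lay below the median of all genes, so the list as a whole did not stand high, although the ammonium transporter gene AMT1-1 and the silicon transporter gene Lsi2 were at the 94.8th and 86.7th. Among 6 markers of green shoot tissue, the median log2 intensity was 7.82 and 9.02 in root -N and 8.49 and 8.85 in root +gln. Their median was at the 70.0th percentile, above that of the root markers, and 2 of them lay below the median of all genes. CAB2R, a chlorophyll-binding protein gene, lay between 13.07 and 13.36 on all arrays, at the 99.9th percentile, and RBCS1 between 2.00 and 2.10. The markers rca and rbcS were at the 83.1st and 81.8th percentile. In root -N, rbcS stood at 8.23 and 10.01 and rca at 8.63 and 10.15. The 10 seed storage markers had a median between 3.00 and 3.36, and 8 of them lay below the median of all genes. GLUA-2 and GLB1 lay above it, at means of 7.97 and 10.04. Whether this GLB1 is the storage protein gene was not checked.

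Several aquaporins were among the brightest probe sets of these roots. The mean log2 intensity of 11 of the 25 genes lay in the top 10% of measured genes and that of 4, TIP1-1, NIP2-1, PIP1-2 and PIP1-1, in the top 1%, whereas 10 lay below the median. By subfamily, the median over members of the mean log2 intensity was 10.80 for PIP, 8.81 for TIP, 8.05 for SIP and 5.76 for NIP, against 7.33 over all measured genes. The 3 larger subfamilies all spanned much of the scale, with members from 2.72 to 12.81 in PIP, from 3.31 to 13.14 in TIP and from 2.51 to 12.97 in NIP, so a median says little about any one gene. The order of the subfamilies also turned with the choice of probe sets: without those prone to cross-hybridisation TIP (10.53) was above PIP (10.25), with the mean over a gene's probe sets SIP (8.05) was above TIP (6.89), and without the dimmer 50% of probe sets NIP (9.40) was above SIP (8.05). Probe sets differ in how strongly they bind their target. These levels are therefore intensities read side by side and not ratios of transcript number, and no test was made between them.

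**Figure D1:**
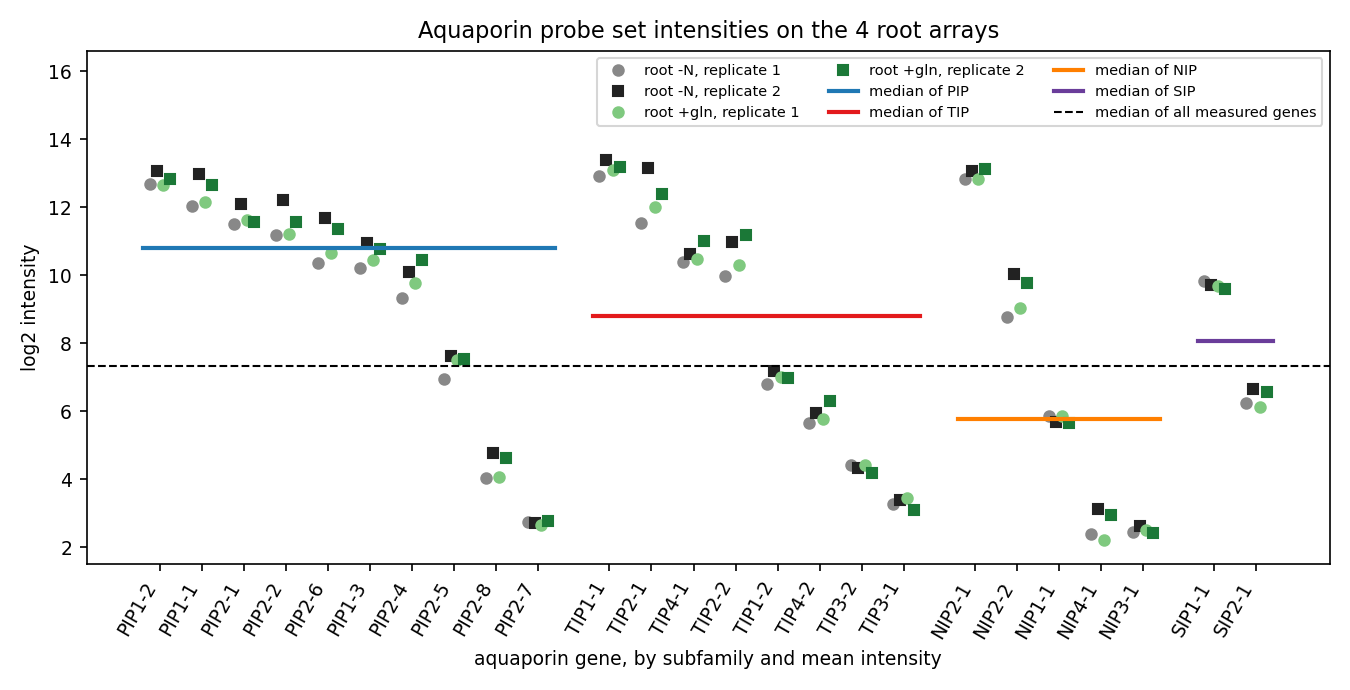
Log2 intensity (y axis) of the probe set kept for each of the 25 aquaporin genes (x axis), with 1 point per array, grey and black for the root -N repeats and light and dark green for the root +gln repeats. Coloured lines give each subfamily's median and the dashed line the median of all measured genes, 7.33. The points of a gene lie close together against the spread between genes, and the black squares of root -N replicate 2 are often the highest of their gene.

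The PIP genes ran from bright to dim, at mean log2 intensities from 12.81 down to 2.72. PIP1-2 (LOC9270874) stood at log2 intensities of 12.68 and 13.07 in root -N replicates 1 and 2, and 12.65 and 12.82 in root +gln. PIP1-1 (LOC4330248, also RWC1), a water channel gene, stood at 12.03 and 12.97 without nitrogen and 12.15 and 12.67 with glutamine. In both genes the root -N repeats enclosed the higher root +gln array, and the groups overlapped. PIP1 proteins of several plants reach the plasma membrane together with PIP2 partners, and PIP1-3 (RWC3), the third measured gene of this type, had a mean log2 intensity of 10.59.

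Of the PIP2 type, whose proteins are the more active water channels in oocyte assays, PIP2-1 (LOC4343122) was the brightest. It stood at log2 intensities of 11.50 and 12.09 in root -N and 11.63 and 11.56 in root +gln. PIP2-2 (LOC4330049) stood at 11.17 and 12.22 in root -N and 11.21 and 11.56 in root +gln. For both, root -N replicate 2 was the highest array and root -N replicate 1 the lowest. PIP2-6 and PIP2-4 had mean log2 intensities of 11.01 and 9.92 and PIP2-5 one of 7.41, next to the median of all genes. PIP2-8 and PIP2-7 were dim, at means of 4.37 and 2.72. The latter lay below the 20th percentile of all probe sets on the array where that percentile was lowest (2.74), as did NIP4-1 and NIP3-1, and no detection call was used that could tell such values from background.

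In the gene table PIP2-4, PIP2-5 and PIP2-1 are close neighbours, with 1 other gene between PIP2-4 and PIP2-5 and 0 between PIP2-5 and PIP2-1. Their log2 differences between root +gln and root -N were 0.40 (SE 0.37), 0.23 (SE 0.29) and -0.20 (SE 0.27) on the log2 scale. None passed the test, and the signs were not the same in the 3 neighbours. The sign for PIP2-1 turned with the probe set, as its other bright one gave -0.28 and its dimmest one 0.16. Probe sets whose names end in _s_at or _x_at were counted here as prone to cross-hybridisation. The one kept for PIP2-1 is of this kind, and those kept for PIP2-4 and PIP2-5 are not. Those kept for PIP2-2, TIP2-1, TIP2-2, TIP3-1, TIP4-2 and NIP2-2 are too, so their values may not be specific to the gene. Whether probes of the 3 neighbours do bind each other's transcripts is not known from the sources at hand.

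Among the TIP genes, TIP1-1 (LOC4331608) was the brightest aquaporin of all, at log2 intensities of 12.92 and 13.37 in root -N replicates 1 and 2 and 13.09 and 13.18 in root +gln. Its counterpart in Arabidopsis carries urea beside water. The root +gln values lay between those of the root -N repeats. TIP2-1 (LOC4330207), of the type that conducts ammonia in Arabidopsis, stood at 11.53 and 13.14 in root -N and 12.01 and 12.37 in root +gln. This gene had the widest gap between repeats of all 25, 1.61 on the log2 scale in root -N against 0.37 in root +gln. TIP4-1 (LOC4338163) stood at 10.40 and 10.61 in root -N and 10.48 and 11.01 in root +gln, with the highest value on root +gln replicate 2.

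TIP2-2, with a mean log2 intensity of 10.62, was the fourth bright TIP gene. TIP1-2 lay between 6.80 and 7.19 over the arrays, and TIP4-2 at a mean of 5.92. TIP3-2 and TIP3-1, whose Arabidopsis counterparts belong to seed storage vacuoles, were at means of 4.34 and 3.31, the latter within the range of the medians of the seed storage markers.

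NIP2-1 (LOC4330713), the silicon influx transporter Lsi1 of the root exodermis and endodermis, stood at log2 intensities of 12.84 and 13.07 in root -N and 12.83 and 13.14 in root +gln. Values within each replicate number were nearly equal. NIP2-2 (LOC4340558), the related silicon transporter Lsi6, stood at 8.76 and 10.04 in root -N and 9.03 and 9.77 in root +gln. NIP1-1 (LOC4328814) stood at 5.85 and 5.69 in root -N and 5.85 and 5.66 in root +gln, and with SIP1-1 and TIP3-2 was lower in replicate 2 of both groups. NIP4-1 and NIP3-1 had means of 2.67 and 2.51. NIP3-1, also named DTE1, is a boron transport gene.

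SIP1-1 (LOC4325361) stood at log2 intensities of 9.84 and 9.71 in root -N and 9.68 and 9.60 in root +gln. Both root +gln arrays were below both root -N arrays, by a narrow margin. SIP2-1 (LOC4332668) stood at 6.25 and 6.66 in root -N and 6.11 and 6.57 in root +gln, and its groups overlapped.

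The comparison of root +gln with root -N asks which transcripts respond within 30 min to glutamine in starved roots. No aquaporin gene met the test. By limma with Benjamini-Hochberg adjustment over all 57258 probe sets, 0 of the 25 passed at 0.05, where 0% of all probe sets were called, and the adjusted p was 1 for each. At an unadjusted p under 0.05 there were also 0 of 25, against 0.882% of all probe sets, and the lowest unadjusted p among the members, over 4 arrays by limma, was 0.32 for PIP2-4.

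The differences between group means were small in all members. They ran from -0.31 in PIP2-2 to 0.40 in PIP2-4 on the log2 scale, 1.24-fold lower and 1.32-fold higher with glutamine. None of the 25 reached 2-fold, as did 0.916% of all genes. Means were higher with glutamine in 9 members and lower in 16, where 46.8% of all genes were higher and 53.1% lower. The median log2 difference was -0.02, against -0.01 over all genes. The 95% intervals, which are per gene and not adjusted, lay within a 2-fold change in either direction for 17 of the 25 genes. For the other 8 the repeats lay too far apart to bound the difference at 2-fold in this fit. The fit had no term for the replicate number, so a gap between repeats that both groups shared also widened an interval. The widest interval was that of TIP2-1, from -1.52 to 1.23. Among the 17 were dim members such as NIP3-1, PIP2-7 and TIP3-1, at mean log2 intensities of 2.51, 2.72 and 3.31. Their signal was not told from background, so their narrow intervals need not bound a change in transcript.

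By subfamily the values were close to 0. The median log2 difference was -0.03 for PIP, with 3 of 10 genes higher in the mean and 7 lower. It was -0.01 for TIP, with 4 of 8 higher, and -0.02 for NIP, with 2 of 5 higher. For the 2 SIP genes it was -0.13, with differences of -0.14 (SE 0.21) for SIP1-1 and -0.11 (SE 0.28) for SIP2-1. No difference between subfamilies was tested, since members are not replicates.

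Groups without overlap were found in 1 of 25 genes, SIP1-1, which was lower with glutamine. Over all genes 9.03% were lower and 10.1% higher without overlap, and 0 of the 25 aquaporins were higher. SIP1-1 averaged 9.78 ± 0.09 (SD, n = 2) in root -N and 9.64 ± 0.06 (SD, n = 2) in root +gln, a difference of -0.14 with an interval from -0.66 to 0.39. The call rests on the scaling of the arrays: after quantile normalization and after median centring of the arrays the groups of SIP1-1 overlapped. Under both of these scalings TIP4-1 was higher with glutamine without overlap, and after median centring PIP1-2 was lower. The shares over all genes under these scalings are not given here.

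PIP2-4 (LOC4343119), singled out after its values were seen because its difference was the largest, stood at log2 intensities of 9.33 and 10.10 in root -N replicates 1 and 2, and 9.79 and 10.45 in root +gln. The group means were 9.71 ± 0.54 (SD, n = 2) and 10.12 ± 0.47 (SD, n = 2), so the difference was smaller than the spread between repeats, and the groups overlapped. Within replicate numbers 1 and 2 it was 0.46 and 0.35. Proteins of this gene carry water and, in oocytes, arsenite. With any 1 array left out the difference ran from 0.02 to 0.79.

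**Figure D2:**
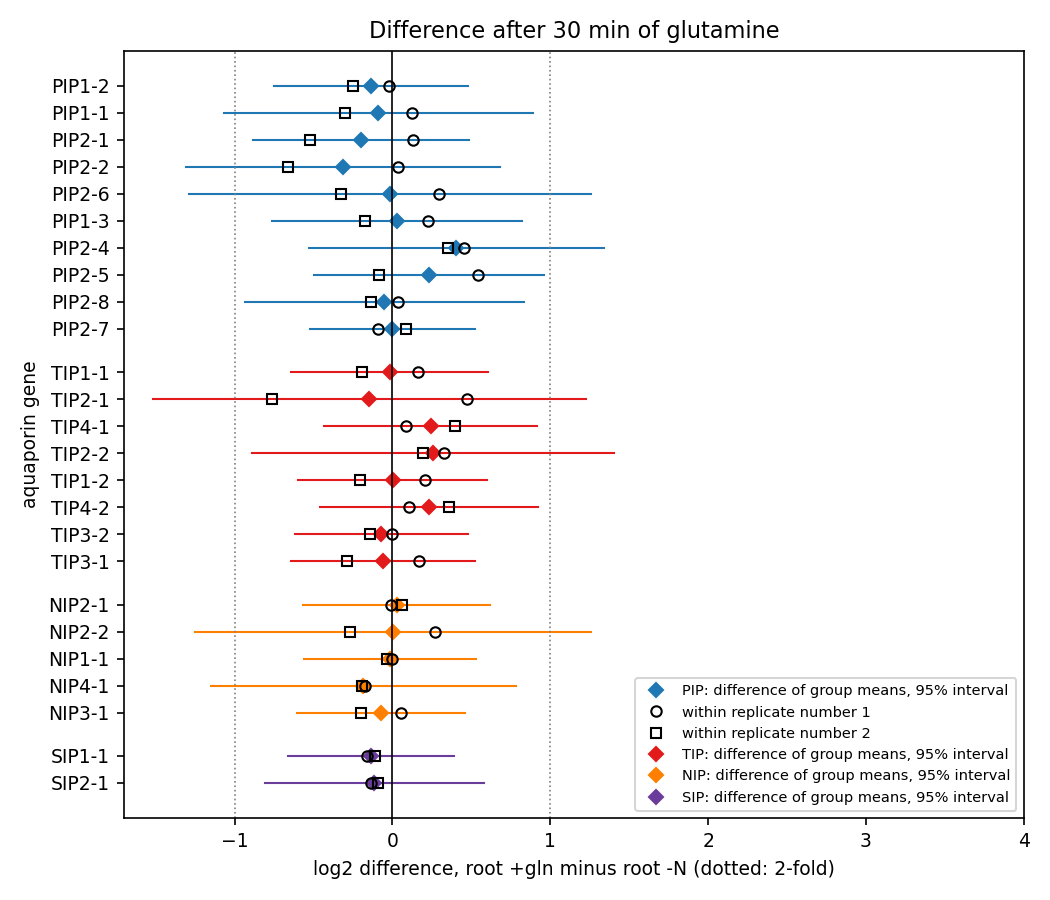
Log2 difference of root +gln minus root -N (x axis) for each aquaporin gene (y axis), with diamonds for the difference of group means, lines for its 95% interval from limma, and open circles and squares for the differences within replicate numbers 1 and 2. All 25 intervals include 0, no diamond reaches the dotted 2-fold lines, and circles lie to the right of squares in 19 genes.

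Within replicate number 1 the aquaporins leaned upwards with glutamine and within number 2 downwards. In number 1, 17 of 25 were higher with glutamine, at a median log2 difference of 0.11, and in number 2, 19 of 25 were lower, at a median of -0.17. Over all genes 53.9% were higher in number 1 and 55.1% lower in number 2, at medians of 0.02 and -0.04. Of the members, 13 were higher within number 1 and lower within number 2, where 28% of all genes were, 4 were higher within both (24.9% of all genes) and 4 lower within both (25.7%). The difference within number 1 was the larger in 19 of 25 members, against 57.1% of all genes.

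The genes in which the 2 numbers disagreed most were TIP2-1, PIP2-2 and PIP2-1. The log2 difference of TIP2-1 was 0.47 in number 1 and -0.76 in number 2. PIP2-2 differed by 0.04 and -0.66, and PIP2-1 by 0.13 and -0.53. In each, the root -N repeats were further apart than the root +gln repeats.

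By subfamily the median log2 differences within numbers 1 and 2 were 0.13 and -0.21 for PIP, 0.16 and -0.17 for TIP and 0.00 and -0.19 for NIP. The SIP genes gave -0.15 and -0.10 and were thus lower within both numbers. PIP2-4, TIP2-2, TIP4-1 and TIP4-2 were the members higher within both, and NIP4-1, PIP1-2 and both SIP genes the members lower within both.

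The same contrast can be read as gaps between repeats, since the difference within number 1 minus that within number 2 equals the root -N gap minus the root +gln gap by arithmetic. The gaps are thus no further evidence, and they cannot show which of the repeats was displaced. In root -N, replicate 2 was above replicate 1 in 21 of 25 aquaporins, at a median gap of 0.45, against 69.6% of all genes at a median of 0.23. In root +gln it was above in 18 of 25, at a median gap of 0.31, against 66.4% of all genes at 0.16. The gap between the root -N repeats exceeded the difference between the group means in 23 of 25 members, where it did so in 78% of all genes.

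Among the brightest aquaporins the arrays numbered 2 were nearly always the higher ones. All 11 aquaporins in the top 10% of intensity were higher in root -N replicate 2 than in replicate 1, at a median gap of 0.71, while 56.7% of all genes of that brightness were, at a median of 0.06. In root +gln the same 11 had a median gap of 0.35, against 0.06, with 10 of them higher in replicate 2. PIP2-6, a gene whose protein also carries arsenite in oocytes, stood at 10.35 and 11.68 in root -N and 10.64 and 11.35 in root +gln. NIP2-2, TIP2-2, PIP2-2 and PIP1-1 were other members with gaps between 0.94 and 1.28 in root -N. NIP2-1 had gaps of 0.23 and 0.31. The 1 gene of the 11 that was lower in replicate 2 of root +gln was PIP2-1, with a gap of -0.07 in the probe set kept. Its other bright probe set had a gap of 0.20 there, and its dimmest one of -0.46. The Gapdh ratio given above moved with the replicate number too, as did the green and the root markers. The green markers had median gaps of 0.89 in root -N and 0.32 in root +gln, with 6 and 5 of 6 higher in replicate 2. For the root markers the median gaps were 1.04 and 0.35, with 8 and 7 of 10 higher. What part any of these had in the gaps of the aquaporins was not tested.

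**Figure D3:**
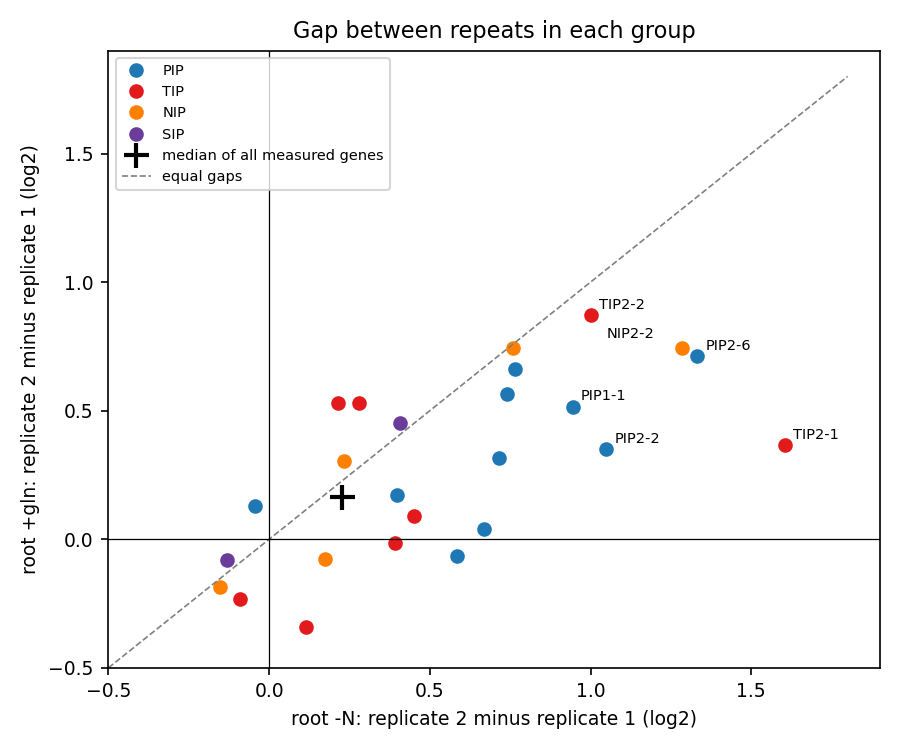
Log2 gap between replicate 2 and replicate 1 in root -N (x axis) and in root +gln (y axis) for the 25 aquaporin genes, coloured by subfamily, with a cross at the medians of all measured genes and names for gaps over 0.9 in root -N. Of the genes, 19 lie below the dashed line of equal gaps, and TIP2-1 is furthest from it, with 1.61 in root -N and 0.37 in root +gln.

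Leaving out root -N replicate 2 turned the direction of the PIP, TIP and NIP medians, and leaving out replicate 1 moved them further below 0. Without replicate 2 the median log2 difference was 0.35 for PIP, 0.28 for TIP and 0.15 for NIP. Without replicate 1 it was -0.38 for PIP, -0.16 for TIP and -0.16 for NIP. The SIP median was below 0 in both fits, at -0.06 and -0.20. Leaving out root +gln replicate 1 also turned the PIP, TIP and NIP medians, to 0.18, 0.03 and 0.18, with SIP at -0.03. Without root +gln replicate 2 they stayed below 0, at -0.19, -0.03 and -0.13, with SIP at -0.22. Over the 4 fits that each leave out 1 array, SIP1-1 was lower and PIP2-4 higher with glutamine in all, and the other 23 genes turned direction in at least 1.

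For 5 genes more than 1 probe set was present, which allows a check of the same transcript. For TIP1-1 both had log2 differences near 0 (-0.02 and 0.01). The second probe set of TIP2-1 was dimmer, at 9.61 and 11.81 in root -N and 10.08 and 10.61 in root +gln, and repeated the wide gap between the root -N repeats, with differences of 0.47 and -1.19 within numbers 1 and 2. Both probe sets of TIP2-1 thus gave the same order of arrays, and whether they share probes is not known.

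For PIP2-1 the 2 bright probe sets had differences of -0.20 and -0.28, and the dimmest one, with a mean of 7.55, differed by 0.16, with root -N replicate 2 as its lowest array. The second probe set of PIP2-2 differed by -0.04, at log2 intensities of 5.60 and 6.61 in root -N and 6.04 and 6.09 in root +gln. The second one of TIP4-1 lay near the bottom of the scale, at 2.79 and 2.83 in root -N and 2.96 and 3.12 in root +gln. Its groups did not overlap, and its difference of 0.24 was the same as that of the bright probe set.

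**Figure D4:**
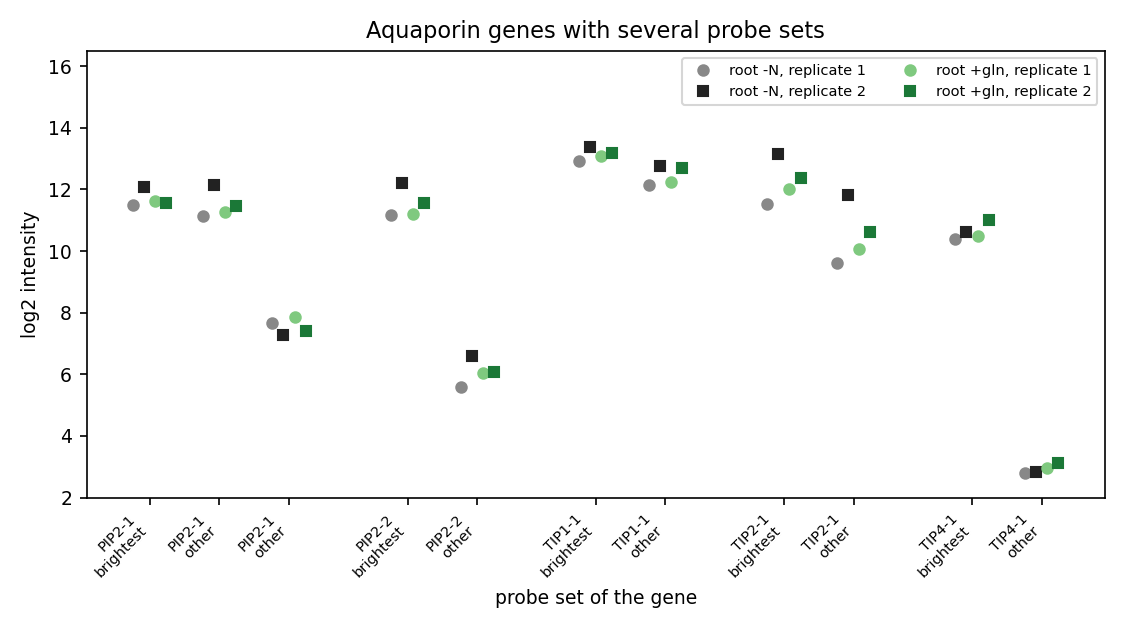
Log2 intensity (y axis) of every probe set of the 5 aquaporin genes with more than 1 (x axis), with 1 point per array coloured by group and replicate. The 2 probe sets of TIP2-1 show the same order of arrays, whereas the dimmest of PIP2-1 has root -N replicate 2 as its lowest array and the brighter ones as their highest.

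Other genes of water, silicon and solute transport in roots were looked up by name. Lsi2, the silicon efflux transporter that acts with Lsi1, stood at log2 intensities of 9.25 and 10.27 in root -N and 9.44 and 10.15 in root +gln, so of the 3 silicon transport genes 0 passed the test (0% of all probe sets) and 0 were without overlap (10.1% of all genes higher and 9.03% lower), at a median difference of 0.03. CASP1, of the protein family that builds the Casparian strip, stood at 5.91 and 7.75 in root -N and 6.62 and 6.60 in root +gln. The urea transporter gene DUR3 stood at 6.62 and 8.17 in root -N and 6.72 and 7.75 in root +gln. In all of these root -N replicate 2 was the highest array except in NIP2-1. The search for plasma membrane proton pumps matched 1 gene, OSA15, whose name does not show that it is a pump, with a difference of -0.16 (SE 0.34), and that for vacuolar pumps matched 0.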

How the data were processed

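The table deposited by the authors held an intensity for each of 57381 probe sets on every array, not log-transformed and running from 2.9 to 21202.3. Per the submitters' processing notes GCOS and RMA were involved, with neither version nor role stated, and how arrays were scaled is not given in the sources at hand. Per the labels' protocols, RNA was extracted with phenol and labelled with biotin. No detection calls were used.

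Log2 was taken with no further normalization, after a floor of 1 that raised 0 values. Tests left out 123 control probe sets. Members and lists were chosen with earlier results of these data known. Genes were matched by gene number, not by coordinates, to RefSeq's table for assembly ASM3414082v1, and the probe set with the highest mean was kept per gene. Chromosome and start position from RefSeq served only to order neighbouring genes. All 57258 probe sets were fitted with limma 3.58.1 (R 4.3.3, lmFit and eBayes, group as the single term), two-sided, with Benjamini-Hochberg adjustment at 0.05. The fit was also run on simulated arrays with independent noise. Unlike these data, they held no deviation shared by same-numbered arrays, and no result here rests on them. Values per array are given for the 3 brightest members per subfamily, those at least 0.5 log2 apart without overlap (0 genes) and the 3 that differ most between replicate numbers, and others were added after their values were seen. The 9 gene lists (6 of related genes, 3 of tissue markers) were matched by name, and potassium transport genes are in the closing section. Alternatives covered the replicate number as a term, each array left out, scaling, dim probe sets, a floor and the probe set per gene.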

Additional observations from a re-analysis of the deposited data

How the results depend on the processing

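Of the 25 aquaporin genes 0 were called in all 14 alternatives, the replicate block with a trended and robust prior (chosen after seeing the data, 24 of all 57258 probe sets called) included, in which the lowest adjusted p of a member was 0.74. With the replicate block alone 0 were called, the differences and the count without overlap are the same by construction, and PIP2-4 had an unadjusted limma p of 0.034 (adjusted p = 0.999). The repeats share only a number: deviations of same-numbered arrays from their group means correlated at r = 0.67 over probe sets, a hint from the data and not the design. With any 1 array left out, between 0 and 15 members were higher and between 1 and 16 lower without overlap. A lone array overlaps less often by construction, and the share over all genes in these fits is not given here. The counts therefore cannot show whether the aquaporins stood out from other genes. In these fits the median log2 difference ran from -0.38 to 0.35 for PIP and from -0.16 to 0.28 for TIP. It ran from -0.16 to 0.18 for NIP and from -0.22 to -0.033 for SIP.

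Without overlap, 1 member, TIP4-1 each time, was higher after median centring, after quantile normalization, with the mean over a gene's probe sets and with its dimmest probe set. The last 2 settings draw on the second probe set of TIP4-1, at a mean log2 intensity of 2.92. The 20th percentile of all probe sets lay between 2.74 and 2.93 on the arrays. Shares over all genes without overlap in these settings are not given here, so the repeated call is no further evidence. The member lower without overlap was PIP1-2 in place of SIP1-1 after median centring, and 0 were lower after quantile normalization. For the scalings the cause was not tested. Median log2 intensities moved because other members or probe sets were counted. They were 10.62 for TIP and 9.40 for NIP without the dimmer 50% of probe sets (20 members), 10.53 for TIP, 10.25 for PIP and 4.21 for NIP without probe sets prone to cross-hybridisation (21 members), 10.08 for PIP and 6.89 for TIP with the mean over probe sets, and 8.73 for PIP and 6.46 for TIP with the dimmest probe set.

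The sign of differences changed, also among the larger ones such as PIP2-1 and PIP2-2. After median centring they were -0.0088 for TIP1-2 and -0.0072 for NIP2-2, after quantile normalization 0.041 for TIP1-1, -0.017 for TIP1-2 and -0.0010 for NIP2-2, and with the dimmest probe set 0.16 for PIP2-1 and 0.014 for TIP1-1. With 1 array left out in turn the log2 difference turned in 23 genes, ranging from -0.11 to 0.077 for NIP1-1, -0.13 to 0.18 for NIP2-1, -0.64 to 0.64 for NIP2-2, -0.16 to 0.013 for NIP3-1, -0.56 to 0.19 for NIP4-1, -0.56 to 0.38 for PIP1-1, -0.33 to 0.063 for PIP1-2, -0.33 to 0.38 for PIP1-3, -0.49 to 0.095 for PIP2-1, -0.84 to 0.21 for PIP2-2, -0.10 to 0.57 for PIP2-5, -0.68 to 0.65 for PIP2-6, -0.067 to 0.064 for PIP2-7, -0.42 to 0.32 for PIP2-8, -0.34 to 0.11 for SIP2-1, -0.24 to 0.21 for TIP1-1, -0.20 to 0.20 for TIP1-2, -0.95 to 0.66 for TIP2-1, -0.24 to 0.76 for TIP2-2, -0.23 to 0.11 for TIP3-1, -0.19 to 0.045 for TIP3-2, -0.023 to 0.51 for TIP4-1 and -0.032 to 0.50 for TIP4-2. The depth of signal over background is unknown for the dim members, since no detection calls were used.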

Other observations

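Potassium channels and carriers, which supply the ion that roots accumulate most for osmotic water uptake, were represented by 24 genes. Of these 0 passed limma's test, 2 were higher with glutamine without overlap (10.1% of all genes) and 0 lower (9.03% of all genes), and the median log2 difference was 0.07, with 0.16 within replicate number 1 and 0.05 within number 2. HAK16 stood at log2 intensities of 6.69 and 5.65 in root -N and 6.90 and 7.20 in root +gln. HAK4, at 2.58 and 3.22 in root -N and 3.38 and 3.36 in root +gln, was close to the lowest values of the arrays. HAK17 stood at 7.35 and 5.24 in root -N and 7.61 and 6.99 in root +gln. In HAK16 and HAK17 root -N replicate 2 was the lowest array, unlike in most of the list. In root -N, replicate 2 was above replicate 1 in 20 of the 24 genes, at a median gap of 0.50, against 69.6% of all genes. In root +gln it was above in 18 of 24, at a median gap of 0.30, against 66.4% of all genes. HAK5, the brightest of the list, lay between 12.59 and 12.68 on all arrays.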
